A study of Mus musculus with 12 samples.

Results

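The loss of MBD2 was compared between leukaemia and normal thymus: for each gene, the change that came with MBD2 deletion in T-cell acute lymphoblastic leukaemia (T-ALL) cells was set against the change that came with the same deletion in CD4+CD8+ thymocytes. The quantity reported, called the difference of effects, is the leukaemia effect (MBD2-/- minus wild type) minus the thymocyte effect (MBD2-/- minus wild type), on the log2 scale. It uses 12 of the 12 arrays of the series, 3 in each of 4 groups, and every probe set assigned to a single gene outside the X and Y chromosomes. The leukaemia cells were GFP+ bone marrow cells, sorted by flow cytometry from transplanted mice with Notch1-driven disease once GFP+ cells made up most of their white blood cells, and were either MBD2 wild type or MBD2-/-. The thymocytes were sorted CD4+CD8+ cells from steady-state mice, again MBD2 wild type or MBD2-/-. The labels give no sex, age, litter or number of primary leukaemias for any group, and do not say how active Notch1 was introduced, how MBD2 was deleted or whether the arrays of a group come from separate animals, so that the p-values describe the spread from array to array, which may be technical. In bulk RNA, fewer cells of a type and less RNA per cell cannot be told apart.

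MBD2 is a protein that binds methylated CpG sites in DNA and brings the nucleosome remodelling and deacetylase (NuRD) complex to them, and it is best known for keeping methylated promoters silent. CD4+CD8+ double-positive thymocytes are the stage at which the T-cell receptor alpha chain is rearranged and tested. T-ALL arises from T-cell precursors, most often with activated Notch1 signalling, and GFP marks the leukaemia cells of this model. The comparison asks which of the expression changes seen without MBD2 belong to the leukaemia, which to the thymocytes, and which to both.

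Intensities are linear array signals, and all levels below are in these units; effects and differences are on the log2(intensity + 16) scale, which understates the change of dim genes. The median array value lay between 5.71 and 5.79 on that scale on all 12 arrays, and the brightest control probe set with no target in the sample read 35.3, the level below which a signal is taken as near background here. The arrays fall into 2 sets by a labelling control. The added dap control read 752 to 3524 on 5 arrays (wild-type leukaemia replicates 1 and 2, MBD2-/- leukaemia replicate 1 and wild-type thymocyte replicates 1 and 2) and 4.25 to 6.26 on the other 7, with a Gapdh 3' to 5' signal ratio, a sign of RNA integrity, of 0.964 to 1.14 in the first set and 1.12 to 3.68 in the second. No MBD2-/- thymocyte array was in the first set, so the difference of effects has no value within it. Within the second set, a fit of 7 arrays chosen after seeing the data, in which the lone wild-type array of each cell type was assumed to vary like the other groups, limma called 493 probe sets higher and 196 lower. All 1722 genes called over the 12 arrays had the same sign there and 443 were called again, on arrays that the full fit also used. Xist, expressed from the inactive X chromosome of females, read 3846 to 4819 in wild-type leukaemia and 28.7 to 45.7 on the other 9 arrays, and the Y-linked Eif2s3y read 7.01 to 7.59 in wild-type leukaemia and 189 to 574 elsewhere. The wild-type leukaemia arrays thus differ from the MBD2-/- leukaemia arrays by these sex-linked signals as well as by genotype, and in the leukaemia effect they cannot be told apart.

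Both cell types showed T-cell transcripts. Cd3e, a subunit of the T-cell receptor complex, read 1909.9 to 2349 in wild-type and 2337 to 3048 in MBD2-/- leukaemia, and 4068 to 4489 and 3433 to 4159.7 in wild-type and MBD2-/- thymocytes. Not all T-lineage markers were alike in the 2 leukaemia genotypes. Thy1 read 5970 to 6296 in wild-type leukaemia but 958 to 1517 in MBD2-/- leukaemia. In wild-type and MBD2-/- thymocytes Thy1 read 8842 to 8912 and 7655 to 8531. Rag1, the recombinase that marks double-positive thymocytes, read 8889 to 12423 and 9207 to 12588 in the 2 thymocyte groups but only 33.8 to 42.3 and 9.78 to 23.9 in wild-type and MBD2-/- leukaemia. In the leukaemia cells of either genotype this defining transcript of the thymocyte stage they are set against was close to background. Dtx1, a direct Notch target, was the reverse, at 2586 to 3173 and 3897 to 5379 in wild-type and MBD2-/- leukaemia against 112 to 232 and 129 to 162 in the thymocytes.

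The deleted gene was low in the MBD2-/- samples of both cell types. Mbd2 read 957, 742 and 762 in wild-type leukaemia, 41.4, 55.7 and 66 in MBD2-/- leukaemia, 1372, 993 and 1043 in wild-type thymocytes and 67.6, 84.3 and 64.4 in MBD2-/- thymocytes. Every MBD2-/- array lay below every wild-type array, by a leukaemia effect of -3.58 and a thymocyte effect of -3.70. The difference of effects was 0.12 (SE 0.24, 95% interval -0.41 to 0.66, adjusted p = 0.839 by limma), and a second Mbd2 probe set gave -0.39 (adjusted p = 0.852). Its sign was not stable: centring each array on its 75th percentile gave -0.01, and leaving out wild-type thymocyte replicate 1 gave -0.02. Whether the probe sets lie inside the deleted stretch is not given in the sources used here.

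Outside Mbd2, the genotype effect differed between leukaemia and thymocytes for many genes, almost all through the leukaemia. Of 27530 probe sets tested, 1715 (6.23%) had a higher and 934 (3.39%) a lower difference of effects at an adjusted p under 0.05 (limma, Benjamini-Hochberg). Taking for each of 14949 genes its brightest probe set, 1087 genes (7.27%) were called higher and 635 (4.25%) lower. A higher difference means that the leukaemia effect lay above the thymocyte effect. It reached at least 1 on the log2 scale for 798 of the higher and 389 of the lower genes, and at least 3 for 96 and 31. The split between higher and lower depends on scaling: 64.7% of called probe sets were higher as deposited, but 49.4% (1400 higher, 1433 lower) when each array was centred on its 75th percentile, which moved the median difference from -0.04 to -0.17. Weighting arrays by quality raised the counts to 2684 and 1592, and adding the Gapdh ratio as a covariate raised them to 2607 and 1587.

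**Figure D1:**
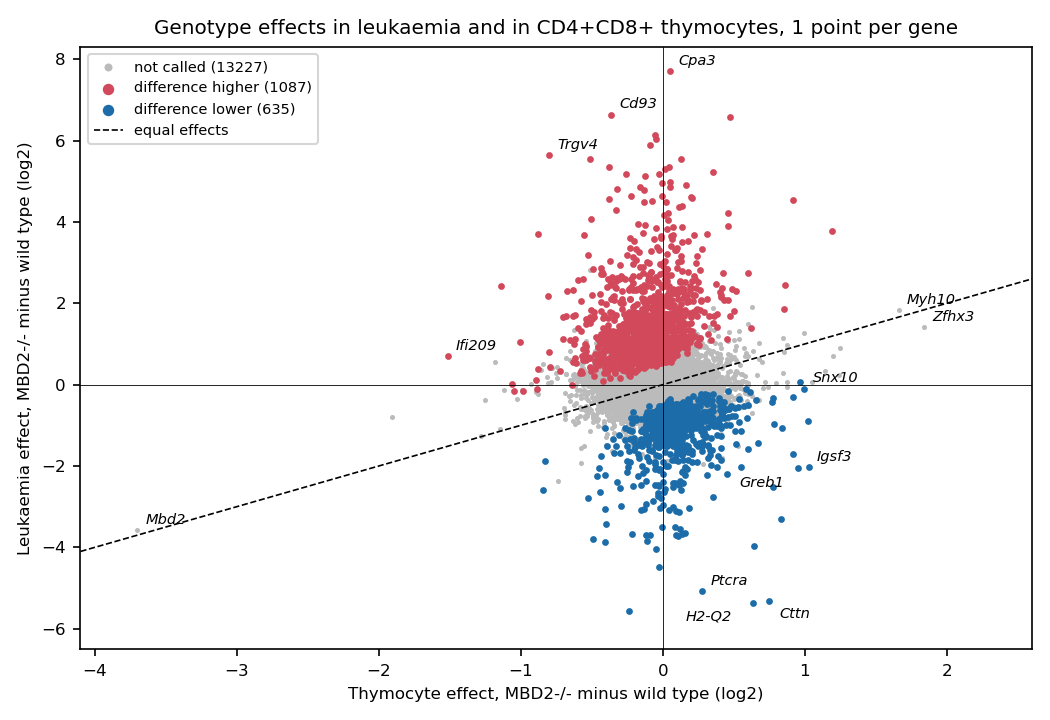
Each point is 1 of 14949 genes, with the thymocyte effect on the horizontal axis and the leukaemia effect on the vertical axis (log2, MBD2-/- minus wild type); red and blue points are the 1087 genes with a higher and the 635 with a lower difference of effects. Called genes spread along the leukaemia axis, while Mbd2, Myh10 and Zfhx3 lie near the dashed line of equal effects.

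Among the 1722 called genes, the leukaemia effect was the larger of the 2 in size for 1674 and the thymocyte effect for 48, where over all genes the thymocyte effect was larger for 4547 (30.4%). The median size of the leukaemia effect over the called genes was 1.14 and that of the thymocyte effect 0.14, against 0.19 and 0.10 over all genes. A gene enters this set through the difference itself, so these sizes are a description. Tested alone in the same fit, the leukaemia effect was called for 2805 genes (18.8%) and the thymocyte effect for 11 (0.0736%), with 659 thymocyte genes (4.41%) at an unadjusted p under 0.05. Of the 2805, 1649 also had a called difference, and for the remaining 1156 the difference from the thymocyte effect was not shown. Across all genes the 2 effects, which share no arrays, had a Pearson r of -0.06, over genes that are not independent replicates.

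The largest higher differences were in genes of mast cells and progenitors, growth factor signalling and cytotoxic granules, and MBD2-/- leukaemia was the highest group in all 12 that lead them. Cpa3, a carboxypeptidase of mast cell granules that is also made by early progenitors, read 24.3, 19.8 and 18.1 in wild-type leukaemia, 6912, 7885 and 8069.7 in MBD2-/- leukaemia, 20.4, 25.2 and 19.8 in wild-type thymocytes and 28.1, 19.7 and 21.8 in MBD2-/- thymocytes. Only the MBD2-/- leukaemia arrays were high, and the other 9 overlapped among themselves. The difference of effects was 7.65 (SE 0.16, adjusted p = 8.46e-10), from a leukaemia effect of 7.70 and a thymocyte effect of 0.05. Cd93, a lectin-like surface receptor of early blood progenitors, read 20.3, 17.5 and 18.5 in wild-type leukaemia, 3386, 3344 and 3634 in MBD2-/- leukaemia, 40.9, 38.9 and 37.4 in wild-type thymocytes and 23.6, 26.3 and 31.1 in MBD2-/- thymocytes. Its MBD2-/- leukaemia arrays again stood alone, with a difference of 7.00 (SE 0.13, adjusted p = 3.26e-10). Hhex, a homeobox factor of blood progenitors, read 2865, 3057 and 1959 in MBD2-/- leukaemia and 17.1 to 30.7 on the other 9 arrays, a difference of 6.08 (SE 0.25, adjusted p = 1.18e-07).

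Tgfb2, a ligand of the TGF-beta receptors, read 2231, 1790.4 and 2065 in MBD2-/- leukaemia and 11.4 to 14.7 elsewhere. The 9 other arrays were all near background, and the difference was 6.19 (SE 0.14, adjusted p = 1.01e-09). Pdgfrb, a receptor tyrosine kinase for platelet-derived growth factor, read 3822, 4968 and 3856 in MBD2-/- leukaemia and 12.5 to 38.7 elsewhere, with a difference of 6.10 (SE 0.25, adjusted p = 1.27e-07). Angpt1, the ligand of the TIE2 receptor, behaved otherwise: it read 10.6, 10.0 and 8.41 in wild-type leukaemia, 1079, 1269.6 and 1185 in MBD2-/- leukaemia, 96.5, 115 and 124 in wild-type thymocytes and 84.6, 72.7 and 64.2 in MBD2-/- thymocytes. Here wild-type leukaemia was the lowest group, the thymocytes lay between, and MBD2-/- leukaemia was highest, with no overlap between leukaemia and thymocyte arrays and a difference of 6.05 (SE 0.16, adjusted p = 6.62e-09). F2r, the thrombin receptor, showed the same order, at 53.6 to 112 in wild-type leukaemia, 222 to 457 in thymocytes and 3579.9 to 4174 in MBD2-/- leukaemia (difference 5.73, SE 0.36, adjusted p = 2.03e-06).

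Gzmb, the serine protease of cytotoxic granules, read 2067, 2275 and 2392 in MBD2-/- leukaemia and 15.6 to 33.3 on the other arrays, a difference of 5.97 (SE 0.25, adjusted p = 1.41e-07). Nkg7, a membrane protein of the same granules, read 1204 to 1733 against 21.2 to 57.6 (difference 5.44, SE 0.27, adjusted p = 3.98e-07). Both genes were thus high in 1 group of 4. Trgv4, a variable segment of the T-cell receptor gamma chain, read 1713, 1887 and 1703 in MBD2-/- leukaemia, 17.4 to 21.3 in wild-type leukaemia, 110.5, 60.1 and 39 in wild-type thymocytes and 30.8, 23.2 and 38.2 in MBD2-/- thymocytes, a difference of 6.45 (SE 0.34, adjusted p = 6.29e-07). Ifitm2, an interferon-induced membrane protein, and Lmcd1, a LIM domain cofactor, completed the 12, with differences of 5.41 (SE 0.25, adjusted p = 2.28e-07) and 5.30 (SE 0.36, adjusted p = 4.2e-06). Trgv4 and Ifitm2, like H2-Q2, Trbv13-2, Ifi209, Gimap3 and Serpinb6b below, have close relatives in the genome, and which copy their probes read is uncertain.

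The largest lower differences included the co-receptor and pre-receptor genes of the thymus, which were high in wild-type leukaemia and in both thymocyte groups and low only in MBD2-/- leukaemia. Ptcra, the invariant pre-T-cell-receptor alpha chain and a Notch target, read 1737, 1633 and 1380.1 in wild-type leukaemia, 40.7, 25.7 and 28.5 in MBD2-/- leukaemia, 421, 333 and 389 in wild-type thymocytes and 429, 445 and 519 in MBD2-/- thymocytes. Wild-type leukaemia was highest, the thymocytes were intermediate and MBD2-/- leukaemia was lowest, without overlap, and the difference of effects was -5.35 (SE 0.20, adjusted p = 7.78e-08). Cd8b1, a chain of the CD8 co-receptor, read 4631, 3825 and 2442 in wild-type and 101, 42.4 and 43.9 in MBD2-/- leukaemia, while the 6 thymocyte arrays read 5262 to 11141 with the genotypes overlapping. Its difference was -5.34 (SE 0.51, adjusted p = 5.07e-05), and that of Cd8a, the other chain, was -3.80 (SE 0.49, adjusted p = 0.000481). Ccr9, the receptor that holds thymocytes to the chemokine CCL25, read 1739.5 to 2693 in wild-type and 62.4 to 146 in MBD2-/- leukaemia, and 7862 to 8877 in wild-type and 7213 to 9257 in MBD2-/- thymocytes (difference -4.0, SE 0.36, adjusted p = 3.65e-05). Cd2, an adhesion receptor of T cells, had a difference of -3.80 (SE 0.54, adjusted p = 0.000954).

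Cttn, the actin-binding protein cortactin, had the most negative difference. It read 1043, 1035 and 1735 in wild-type leukaemia, 15.3, 14.9 and 15 in MBD2-/- leukaemia, 212, 152 and 265 in wild-type thymocytes and 420.4, 341 and 309.8 in MBD2-/- thymocytes. In leukaemia the MBD2-/- arrays were at background and the wild-type arrays bright; in thymocytes every MBD2-/- array lay above every wild-type array, an effect of 0.75 that did not pass its own test (adjusted p = 0.777), and the difference of effects was -6.08 (SE 0.32, adjusted p = 5.72e-07). H2-Q2, of the class I histocompatibility family, read 453, 994 and 1506 in wild-type and 5.23, 5.69 and 5.82 in MBD2-/- leukaemia, against 314 to 1003 over the 6 thymocyte arrays (difference -6.01, SE 0.55, adjusted p = 4.12e-05). Nrp1, a co-receptor for semaphorins and vascular endothelial growth factor, read 489, 564 and 655 in wild-type leukaemia, 19.8, 24.1 and 20.5 in MBD2-/- leukaemia, 296, 295 and 500.3 in wild-type thymocytes and 681, 509.5 and 509 in MBD2-/- thymocytes. Its MBD2-/- leukaemia arrays were below background level and all other arrays at 295 or above, giving a difference of -4.60 (SE 0.28, adjusted p = 1.71e-06).

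Dsp, the desmosome protein desmoplakin, differed in form from these: it read 177, 394 and 447 in wild-type leukaemia and 7.16 to 10.6 on the other 9 arrays, so that wild-type leukaemia stood alone (difference -3.82, SE 0.36, adjusted p = 4.66e-05). Fabp5, a fatty-acid-binding protein, read 3447 to 4701 in wild-type leukaemia, 226 to 642 in MBD2-/- leukaemia, 601 to 706 in wild-type thymocytes and 1108 to 1335 in MBD2-/- thymocytes, the last above all wild-type thymocytes (difference -4.14, SE 0.41, adjusted p = 7.2e-05). The arylsulfatase gene Arsi and the amino acid transporter gene Slc36a4 had differences of -3.80 (SE 0.31, adjusted p = 1.59e-05) and -3.74 (SE 0.22, adjusted p = 1.41e-06).

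**Figure D2:**
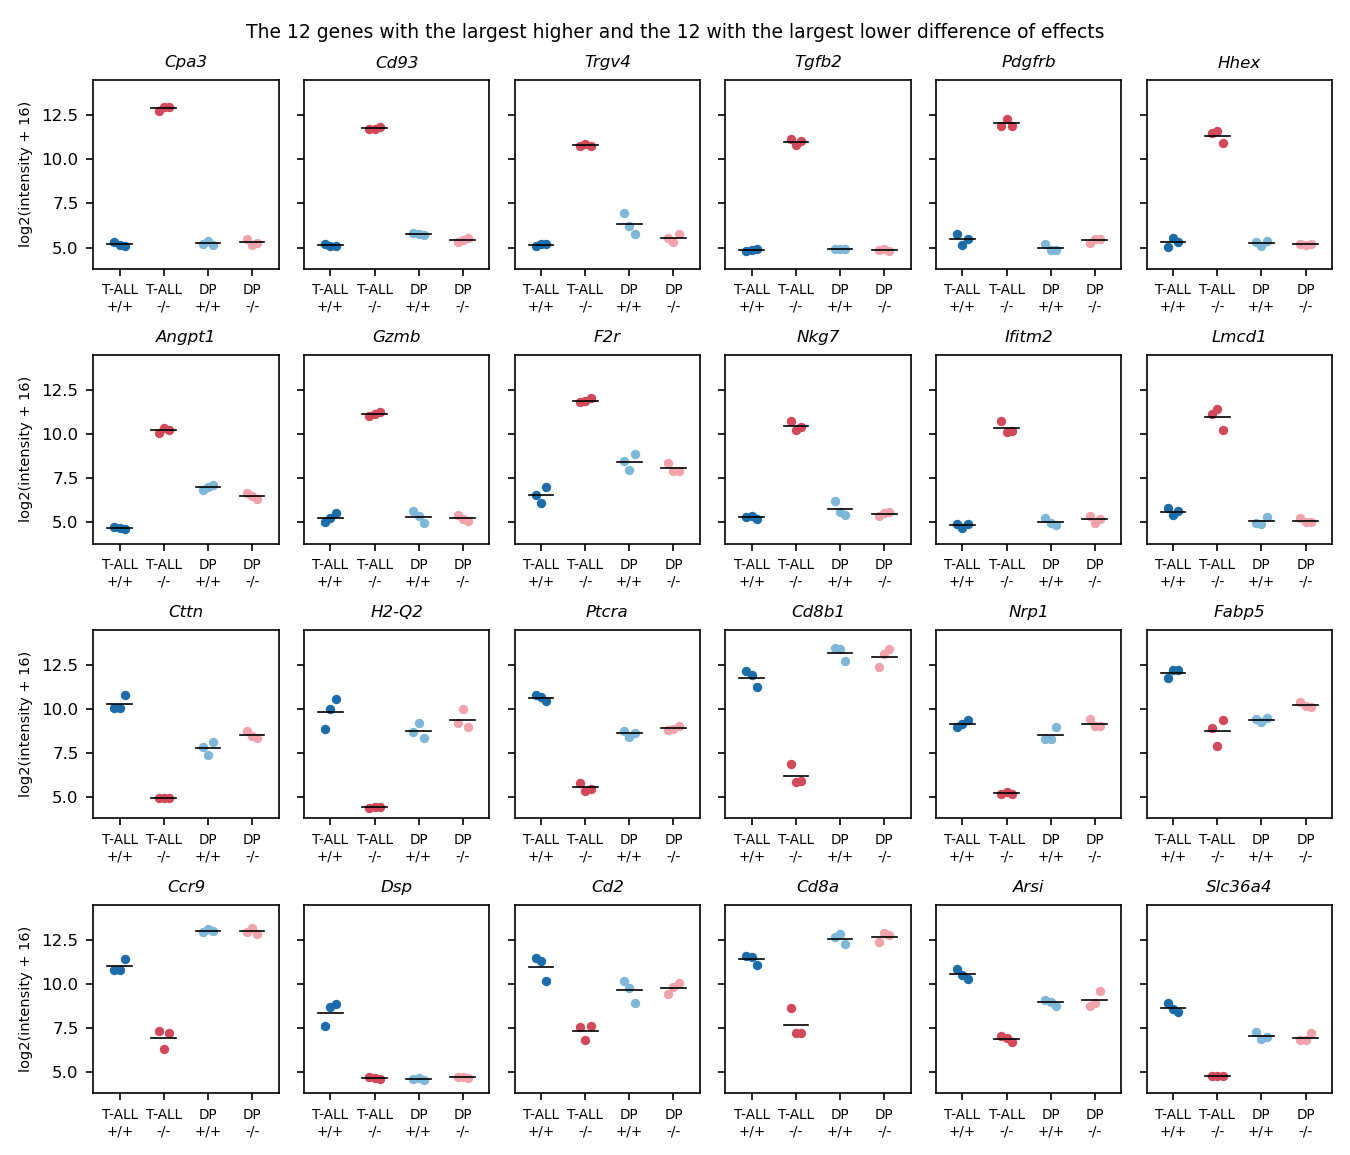
Each panel shows 1 gene on the 12 arrays as log2(intensity + 16), with points for arrays and black bars for the mean of 3 (T-ALL, leukaemia; DP, CD4+CD8+ thymocytes; +/+, MBD2 wild type; -/-, MBD2-/-). In the upper 12 panels the MBD2-/- leukaemia arrays are highest, and in the lower 12 the MBD2-/- leukaemia arrays lie below the wild-type leukaemia arrays.

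The stretch of 250 bases before the RefSeq start of the 3 leading higher and 3 leading lower genes held in the promoter table is shown, since MBD2 binds methylated CpG sites; each CG is in capitals, and the sequences read 5' to 3' on the gene's strand (GRCm38.p6).
Cpa3: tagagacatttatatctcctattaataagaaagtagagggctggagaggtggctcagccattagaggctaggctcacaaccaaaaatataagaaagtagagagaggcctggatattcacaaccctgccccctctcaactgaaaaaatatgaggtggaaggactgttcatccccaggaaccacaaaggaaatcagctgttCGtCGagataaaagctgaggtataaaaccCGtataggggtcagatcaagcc
Tgfb2: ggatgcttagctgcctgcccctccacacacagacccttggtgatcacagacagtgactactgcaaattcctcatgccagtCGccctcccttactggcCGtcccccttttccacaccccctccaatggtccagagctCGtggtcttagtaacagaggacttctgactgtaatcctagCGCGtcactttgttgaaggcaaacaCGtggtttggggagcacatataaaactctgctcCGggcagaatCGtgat
Hhex: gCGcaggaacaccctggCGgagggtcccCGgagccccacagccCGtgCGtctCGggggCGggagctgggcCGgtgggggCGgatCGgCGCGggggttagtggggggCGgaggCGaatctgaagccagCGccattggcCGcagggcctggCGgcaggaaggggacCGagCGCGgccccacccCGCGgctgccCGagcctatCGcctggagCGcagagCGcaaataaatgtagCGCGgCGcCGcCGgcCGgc
H2-Q2: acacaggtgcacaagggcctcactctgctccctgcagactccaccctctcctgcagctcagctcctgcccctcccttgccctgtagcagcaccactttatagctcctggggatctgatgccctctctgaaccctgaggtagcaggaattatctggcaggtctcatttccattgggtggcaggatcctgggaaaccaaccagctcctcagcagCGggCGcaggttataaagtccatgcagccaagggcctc
Ptcra: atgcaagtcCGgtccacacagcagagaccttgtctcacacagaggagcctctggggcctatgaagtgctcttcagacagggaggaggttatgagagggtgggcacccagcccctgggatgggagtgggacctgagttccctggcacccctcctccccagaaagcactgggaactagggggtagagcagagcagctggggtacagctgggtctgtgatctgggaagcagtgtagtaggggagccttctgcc
Nrp1: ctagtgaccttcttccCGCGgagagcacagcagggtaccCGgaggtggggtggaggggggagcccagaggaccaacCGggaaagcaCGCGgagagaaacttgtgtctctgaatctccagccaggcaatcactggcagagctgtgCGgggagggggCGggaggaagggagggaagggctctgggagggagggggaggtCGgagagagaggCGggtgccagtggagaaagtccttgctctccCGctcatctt

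These stretches lie at chr3:20242182-20242431 (minus strand), chr1:186705990-186706239 (minus), chr19:37434591-37434840 (plus), chr17:35342057-35342306 (plus), chr17:46763713-46763962 (minus) and chr8:128358823-128359072 (plus). They differed widely in CG number: Hhex held 32 and Nrp1 11, Tgfb2 8, Cpa3 3, H2-Q2 2 and Ptcra 1. Relative to the number that their C and G content would give, the ratio was 0.91 for Hhex, 0.47 for Nrp1, 0.46 for Tgfb2, 0.25 for Cpa3, 0.097 for H2-Q2 and 0.045 for Ptcra. Of 32851 promoters of the same length in the table, 92.1% held at least 1 CG. Both the higher and the lower genes shown thus include CG-poor and CG-richer starts. A comparison of CpG content between the called sets was void, since only 849 of 1087 higher genes (78.1%) and 68 of the 96 with a difference of at least 3 (70.8%) had a promoter in the table.

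Which of the 4 groups set a gene's difference was read from the arrays. A group was taken to stand apart when its 3 arrays all lay above, or all below, the other 9 by at least 1 on the log2 scale. Among the 1722 called genes, MBD2-/- leukaemia stood above all other arrays for 247 (14.3%) and below them for 72 (4.18%), and wild-type leukaemia stood above for 68 (3.95%) and below for 95 (5.52%). Neither thymocyte group stood apart for any called gene. The counts depend on the margin: with none required they were 703, 262, 434 and 467 in the same order, with 61 and 55 genes for wild-type thymocytes above and below and 23 and 48 for MBD2-/- thymocytes, and with 2 they were 90, 18, 15 and 14. In 3 genes wild-type leukaemia stood above and MBD2-/- leukaemia below the thymocytes, among them Cttn and Ptcra, and in 5 the reverse held, among them Angpt1.

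In 95 genes wild-type leukaemia was the group that stood lowest. Slc15a2, a peptide transporter, read 23.7, 16.8 and 19.8 in wild-type leukaemia, 1408, 1805 and 926 in MBD2-/- leukaemia, 2349, 2194 and 985 in wild-type thymocytes and 2880.1, 1229 and 3007 in MBD2-/- thymocytes. MBD2-/- leukaemia overlapped the thymocytes and wild-type leukaemia was at background (difference 4.87, SE 0.56, adjusted p = 0.000213). Trbv13-2, a variable segment of the T-cell receptor beta chain, read 13 to 16.2 in wild-type leukaemia, 703 to 767 in MBD2-/- leukaemia and 291 to 513 in thymocytes (difference 4.85, SE 0.28, adjusted p = 1.05e-06). Tsc22d1, a leucine-zipper regulator, read 57.4 to 108, 2452 to 3200.3 and 689 to 1266 in the same order (difference 4.82, SE 0.33, adjusted p = 4.2e-06).

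In a minority of genes the thymocytes contributed. The thymocyte effect was larger in size than the leukaemia effect for 29 higher and 19 lower called genes. Ifi209, an interferon-inducible gene of the PYHIN family, read 18.2, 13.5 and 35.7 in wild-type leukaemia, 53.7, 24.9 and 63.4 in MBD2-/- leukaemia, 1222, 1009.9 and 854 in wild-type thymocytes and 456, 334 and 271 in MBD2-/- thymocytes. Every MBD2-/- thymocyte array was below every wild-type one, while the leukaemia arrays of the genotypes overlapped, and the difference was 2.22 (SE 0.41, adjusted p = 0.00478). Its thymocyte effect of -1.52 did not itself pass (adjusted p = 0.196). Ripor2, an inhibitor of the small GTPase RhoA, read 487 to 636 in wild-type and 290.4 to 314 in MBD2-/- thymocytes but 465 to 644 and 881 to 956 in wild-type and MBD2-/- leukaemia, a difference of 1.60 (SE 0.19, adjusted p = 0.000286) with effects of -0.80 and 0.80.

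Of the remaining higher genes of this kind, Scn4b, a sodium channel subunit, had a difference of 1.25 (SE 0.20, adjusted p = 0.00195), with a thymocyte effect of -0.88. Itgb7, the integrin beta 7 chain, had 1.18 (SE 0.22, adjusted p = 0.00561), with a thymocyte effect of -0.63. Abcg3, an ATP-binding cassette transporter, had 1.23 (adjusted p = 0.0323) and Ctsa, a lysosomal carboxypeptidase, 1.14 (adjusted p = 0.0471). Those 2 calls were weak: each was lost when any 1 of the same 8 arrays was left out (wild-type leukaemia replicates 2 and 3, MBD2-/- leukaemia 1 and 2, wild-type thymocyte 1 and 2, MBD2-/- thymocyte 1 and 2), with adjusted p up to 0.0813 and 0.112.

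Among the lower genes of this kind, Dact1, an adaptor that binds Dishevelled, read 93.4, 101 and 102 in wild-type and 267, 171 and 177 in MBD2-/- thymocytes, and 40.7 to 74 over the 6 leukaemia arrays (difference -1.22, SE 0.24, adjusted p = 0.00725). Prickle1, a planar cell polarity protein, had a difference of -1.19 (SE 0.22, adjusted p = 0.00485), and Tcf7l1, a repressor of the TCF family, -1.09 (SE 0.23, adjusted p = 0.0108). Counts of the Wnt lists are given below. Snx10, a sorting nexin, was the only one of the 12 genes named for a larger thymocyte effect whose thymocyte effect itself passed: it read 53, 49.9 and 45.4 in wild-type and 118, 108 and 117 in MBD2-/- thymocytes (1.00, adjusted p = 0.0231), against 132 to 190.0 and 133 to 165 in leukaemia (-0.10, adjusted p = 0.705). The difference was -1.09 (SE 0.18, adjusted p = 0.00221). Ptpn14, a tyrosine phosphatase, had -1.10 (SE 0.17, adjusted p = 0.00183), and Krt18, a keratin, -1.09 (SE 0.22, adjusted p = 0.00878).

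Signs of the 2 effects were opposite for 1188 of the 1722 called genes (69.0%) and for 52.4% of all genes, but calling by the difference favours opposite signs. Both effects were at least 0.5 in size and opposite for 68 called genes (45 higher, 23 lower), and for 92 of all genes. The 6 largest were Trgv4, Cttn, Angpt1, H2-Q2, Nrp1 and Samsn1. Samsn1, an adaptor protein of lymphocytes, read 15.3 to 26.5 in wild-type and 558 to 587 in MBD2-/- leukaemia, and 66.7 to 124 and 49 to 91.9 in wild-type and MBD2-/- thymocytes, which overlapped (difference 4.58, SE 0.32, adjusted p = 4.61e-06). None of these 6 had a thymocyte effect that passed its own test.

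Both effects passed for 8 genes, which were singled out after their values were seen. In 3 of them the effects were opposite. Igsf3, an immunoglobulin superfamily membrane protein, read 139, 119.9 and 105 in wild-type leukaemia, 18.3, 15.5 and 19.08 in MBD2-/- leukaemia, 137, 154 and 131 in wild-type thymocytes and 286, 287 and 338 in MBD2-/- thymocytes. It fell by 2.02 in leukaemia (adjusted p = 3.94e-07) and rose by 1.03 in thymocytes (adjusted p = 0.0128), with no overlap of genotypes in either, and the difference was -3.05 (SE 0.16, adjusted p = 6.29e-07). Greb1, an oestrogen-regulated gene, read 89.3 to 109 and 11.7 to 13.1 in wild-type and MBD2-/- leukaemia, and 24.2 to 31 and 54.9 to 84.3 in thymocytes (difference -3.0, SE 0.19, adjusted p = 1.89e-06). Card10, a scaffold protein of NF-kB signalling, read 483 to 545 and 196 to 266 in leukaemia and 61.6 to 70.6 and 127 to 132 in thymocytes (difference -1.91, SE 0.16, adjusted p = 1.89e-05).

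In the other 5 genes the effects had the same sign and their difference was not called: Mbd2, Myh10, Zfhx3, Pkn3 and Bnip5. Myh10, the heavy chain of non-muscle myosin IIB, read 357, 306 and 389 in wild-type leukaemia, 1112, 1210.4 and 1548 in MBD2-/- leukaemia, 53.2, 69.5 and 64.9 in wild-type thymocytes and 229.9, 240.1 and 224 in MBD2-/- thymocytes. It rose by 1.83 in leukaemia and 1.66 in thymocytes, and the 95% interval of the difference ran from -0.27 to 0.59. Zfhx3, a zinc-finger homeobox factor, rose by 1.42 and 1.84 (interval of the difference -1.11 to 0.27). The kinase gene Pkn3 rose by 0.71 and 1.20 (interval -0.97 to -0.01, adjusted p = 0.224 by limma), and Bnip5 by 0.97 and 0.88 (interval -0.29 to 0.46). A difference that was not called does not show that the effects were equal.

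**Figure D3:**
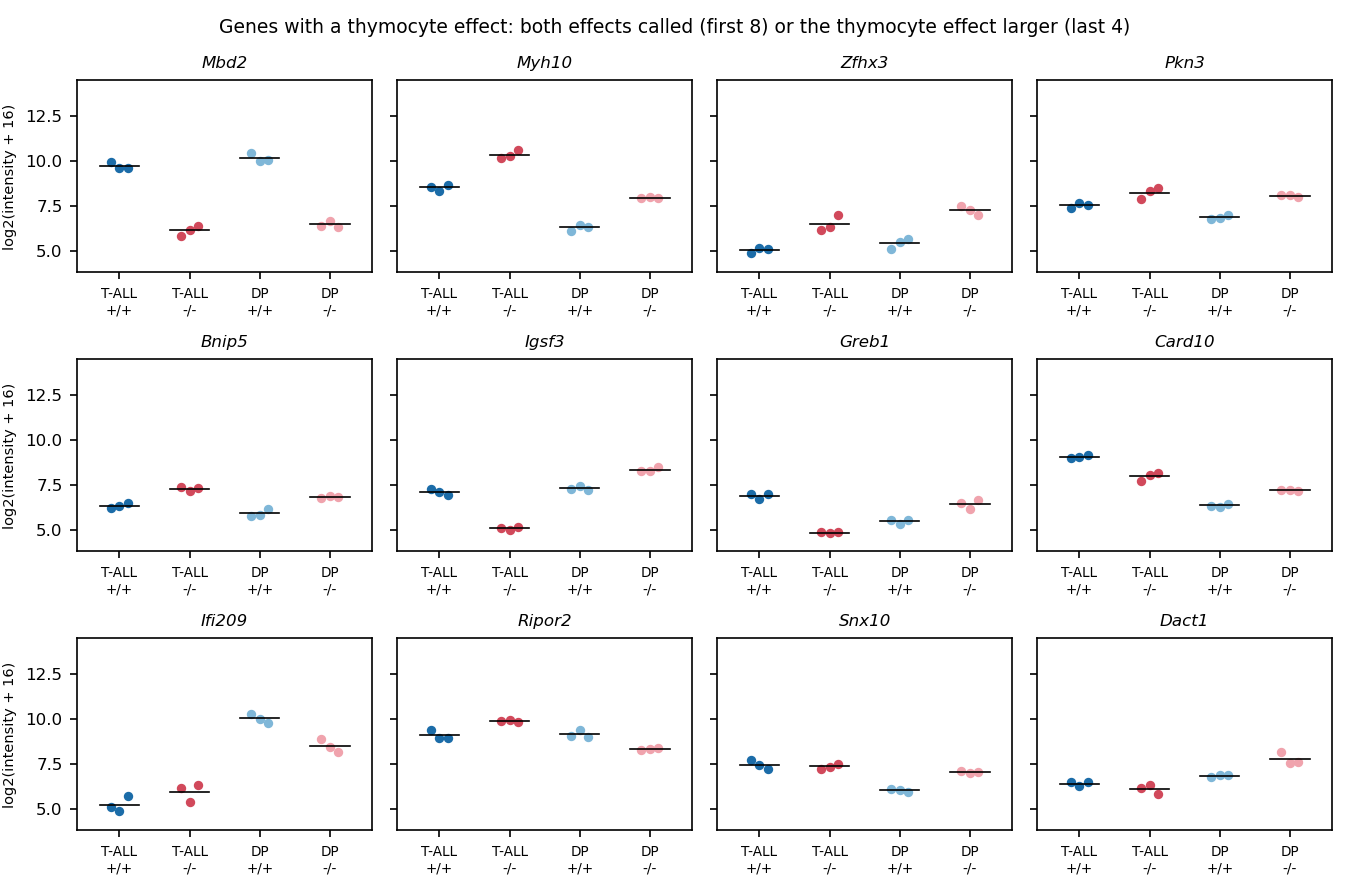
Each panel shows 1 gene on the 12 arrays as log2(intensity + 16), points for arrays and bars for the mean of 3 (T-ALL, leukaemia; DP, CD4+CD8+ thymocytes; +/+, MBD2 wild type; -/-, MBD2-/-). Mbd2, Myh10, Zfhx3, Pkn3 and Bnip5 moved the same way in both cell types, Igsf3, Greb1 and Card10 moved oppositely, and in the last 4 genes the thymocyte effect was the larger.

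Gene lists are described next by how many tested members were called higher and lower, read against 7.27% and 4.25% of all genes, and by the median difference, which was -0.05 over all genes (-0.06 for the leukaemia and -0.02 for the thymocyte effect). Genes of a list share the same arrays and are not independent, so the counts are descriptions. The lists and their members were chosen with earlier results of these data known. A share above that of all genes may therefore follow in part from the choice.

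Genes of double-positive identity were called lower more than higher. Of 32 tested, 7 were lower and 2 higher, with a median of -0.02. Besides Cd8a, Cd8b1 and Ccr9, the co-receptor Cd4 read 253, 299.6 and 259.6 in wild-type leukaemia, 92.2, 91.8 and 94.2 in MBD2-/- leukaemia, 1654, 1886 and 1351 in wild-type thymocytes and 1376, 1844 and 1285 in MBD2-/- thymocytes. MBD2-/- leukaemia lay below wild-type leukaemia on every array, the thymocyte genotypes overlapped, and the difference was -1.27 (SE 0.22, adjusted p = 0.00289). Ly6d, a GPI-anchored surface protein of lymphoid precursors, read 369.6 to 473 and 26.5 to 52.2 in wild-type and MBD2-/- leukaemia and 2763 to 5235 in thymocytes (difference -2.92, SE 0.39, adjusted p = 0.000586). The other 2 lower members were Satb1 (-1.32), a chromatin organiser, and Ikzf3 (-1.91), a lymphoid zinc-finger factor. The 2 higher were Dntt (1.63) and Plxnd1 (1.70). Dntt, the terminal transferase that adds bases at receptor junctions, read 830.1 to 1682 in wild-type and 2987 to 4733 in MBD2-/- leukaemia and 10671 to 12011 in thymocytes (difference 1.63, adjusted p = 0.011).

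Of 19 pre-receptor, CD3 and recombination genes, 2 were higher and 2 lower (median 0.10, or -0.03 after centring on the 75th percentile and -0.01 after quantile normalization), with 4 higher after quantile normalization, with array weights or with the Gapdh ratio as a covariate. Beyond Ptcra and Dntt, these were Syk, a kinase of the pre-receptor signal (difference 1.99, SE 0.14, adjusted p = 6.01e-06), and Xrcc6, the Ku70 end-joining protein (difference -1.79, SE 0.32, adjusted p = 0.00394). Syk read 21 to 27.5 in wild-type leukaemia, 129 to 137 in MBD2-/- leukaemia and 176 to 219.9 in thymocytes, so MBD2-/- leukaemia was the nearer to the thymocytes.

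T-lineage commitment factors gave 8 higher and 3 lower of 26 (median 0.42), or 5 higher without wild-type leukaemia replicate 2. Rora, a nuclear receptor, read 20.3 to 26.5 and 250.2 to 328 in wild-type and MBD2-/- leukaemia and 67.4 to 96.1 in thymocytes (difference 2.93, SE 0.19, adjusted p = 2.56e-06). Tcf4, an E protein, had 3.01 (SE 0.25, adjusted p = 2.15e-05) and Bach2, a transcriptional repressor of effector genes, 3.36 (SE 0.48, adjusted p = 0.000954), and in both MBD2-/- leukaemia overlapped the thymocytes. Id3, which inhibits E proteins, was lower, at -2.02 (SE 0.30, adjusted p = 0.00123).

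Notch genes were called higher in 7 and lower in 1 of 30 (median 0.44). Notch1 itself, the receptor, read 1614, 1411 and 1346 in wild-type leukaemia, 6369, 6435 and 4188 in MBD2-/- leukaemia, 1683, 1379 and 1725 in wild-type thymocytes and 1329.9, 1588 and 1752 in MBD2-/- thymocytes. MBD2-/- leukaemia was above all 9 other arrays, which overlapped, and the difference was 1.96 (SE 0.25, adjusted p = 0.000416). Whether the Notch1 probe sets also read the active Notch1 that drives the disease is not given in the sources used here. Hey1, a direct target, read 892, 802 and 354 in MBD2-/- leukaemia and 30.4 to 44.8 elsewhere (difference 3.51, SE 0.39, adjusted p = 0.000146), and Adgrg1, an adhesion receptor placed on the target list, had 2.07 (SE 0.28, adjusted p = 0.000714). Rbpj (0.57), the DNA-binding partner of Notch, the feedback target Nrarp (1.35), the factor Gata3 (1.01) and the ligand Jag2 (0.59) were the others called higher. Ptcra was the only member called lower. The count of higher members was 4 without any 1 of wild-type leukaemia replicate 2, MBD2-/- leukaemia replicate 1 or MBD2-/- thymocyte replicate 3. Myc, a further Notch target, gave 0.11 (SE 0.71, adjusted p = 0.959) and changed sign between alternatives.

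Stem and progenitor factors were called higher in 11 and lower in 1 of 28, with a median of 0.37. Besides Cd93 and Hhex, Lyl1, a basic helix-loop-helix factor linked to T-ALL, read 51.6 to 70.0 in wild-type leukaemia, 2409, 2516 and 3021 in MBD2-/- leukaemia and 22.2 to 32.2 in thymocytes (difference 5.26, SE 0.18, adjusted p = 4.01e-08). Nfe2, a factor of megakaryocyte and erythroid precursors, read 20.7 to 31.5, 1317, 1303 and 1266 and 10.2 to 12.4 in the same order (difference 4.97, SE 0.14, adjusted p = 8.26e-09). Kit, the stem cell factor receptor, had 4.02 (SE 0.39, adjusted p = 5.95e-05), and Lmo2 (3.90), Erg (4.19), Etv6 (2.24), Irf8 (1.58), Gata2 (1.24) and Gfi1b (0.99) were the other higher members. Mycn (-0.96) was the only lower one. That call was lost without wild-type leukaemia replicate 1 or 2 or MBD2-/- thymocyte replicate 1 or 2, and another Mycn probe set was called the other way (0.81).

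Of 10 mast cell and basophil genes tested, 5 were higher and none lower by limma, adjusted or not (median 0.67): Cpa3, Kit, Hdc, Gata2 and Mcpt8 (1.31). Hdc, histidine decarboxylase, read 385, 441 and 266 in MBD2-/- leukaemia and 39.9 to 60.7 elsewhere (difference 2.49, SE 0.25, adjusted p = 8.32e-05), and Gata2, a factor of progenitors and mast cells, 148, 148 and 112 against 36.2 to 61.8 (difference 1.24, SE 0.20, adjusted p = 0.0025). The summed signal of the 10 genes was 8358 to 9829 in MBD2-/- leukaemia and 258 to 451 on the other arrays, most of it Cpa3. The defining mast cell genes were near background in every group: Fcer1a read 5.64 to 6.75, Ms4a2 9.64 to 10.9 and Cma1 8.68 to 10.1 in MBD2-/- leukaemia.

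Cytotoxic effector genes were called higher in 13 and lower in none of 27 by limma (median 0.65), with 14 and 1 at an unadjusted p under 0.05 and 1 lower without wild-type leukaemia replicate 1. Serpinb6b, a granzyme-inhibiting serpin, read 1004 to 1147 in MBD2-/- leukaemia, 17.8 to 30.8 in wild-type leukaemia and 60.1 to 109 in thymocytes (difference 5.14, SE 0.24, adjusted p = 2.84e-07). Il18r1, a receptor chain for interleukin 18, had 4.95 (SE 0.33, adjusted p = 3.67e-06), and the granule genes Cst7 (3.24), Serpinb9 (2.67) and Ctsw (2.74) were also higher. Natural killer markers overlapped with this list: 3 of 9 were called higher by limma (Klrd1, Il2rb and Cd244a) and none lower, adjusted or not (median 0.11, or -0.02 after centring on the 75th percentile). Klrd1, a lectin-like receptor, read 309, 315 and 175 in MBD2-/- leukaemia and 10.4 to 43 elsewhere (difference 3.44, SE 0.35, adjusted p = 8.38e-05), Il2rb had 1.09 (SE 0.16, adjusted p = 0.00095) and Cd244a 1.00 (SE 0.16, adjusted p = 0.00246). The summed signal of the 9 genes was 4115 to 8049 in MBD2-/- leukaemia and 633 to 1535 on the other arrays, and its part in the results was not tested. Ncr1, which defines natural killer cells, was near background at 15 to 19.8 in MBD2-/- leukaemia, and Cd3e was high there, as given above.

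Interferon-stimulated genes gave the highest median of the lists, 1.11, with 22 of 49 higher and none lower by limma (29 and 0 at an unadjusted p under 0.05) and 45 of 49 above 0. The median leukaemia effect was 0.76 and the median thymocyte effect -0.17. Gbp2, a guanylate-binding protein, read 44.7, 45 and 55.1 in wild-type leukaemia, 689.9, 229 and 308 in MBD2-/- leukaemia, 441, 356 and 408 in wild-type thymocytes and 300.2, 224 and 259 in MBD2-/- thymocytes. It was lowest in wild-type leukaemia, and MBD2-/- leukaemia overlapped both thymocyte groups (difference 3.17, SE 0.43, adjusted p = 0.000641). Trim30a, a tripartite-motif protein, read 134 to 179.6 and 822 to 1109.7 in wild-type and MBD2-/- leukaemia and 367 to 533 and 277 to 416 in wild-type and MBD2-/- thymocytes (difference 2.88, SE 0.26, adjusted p = 3.72e-05). Oasl2, of the oligoadenylate synthetase family, read 7.56 to 8.26, 84.5 to 144, 13.8 to 23.7 and 12.4 to 22.5 in the same order (difference 2.46, SE 0.25, adjusted p = 7.3e-05). The regulators Irf7 (1.84), Irf9 (1.61) and Usp18 (3.41) and the sensors Ifih1 (1.61) and Ddx58 (0.96) were called higher too. The count lay between 17 (without MBD2-/- thymocyte replicate 2) and 24 (without wild-type thymocyte replicate 3) when arrays were left out in turn.

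**Figure D4:**
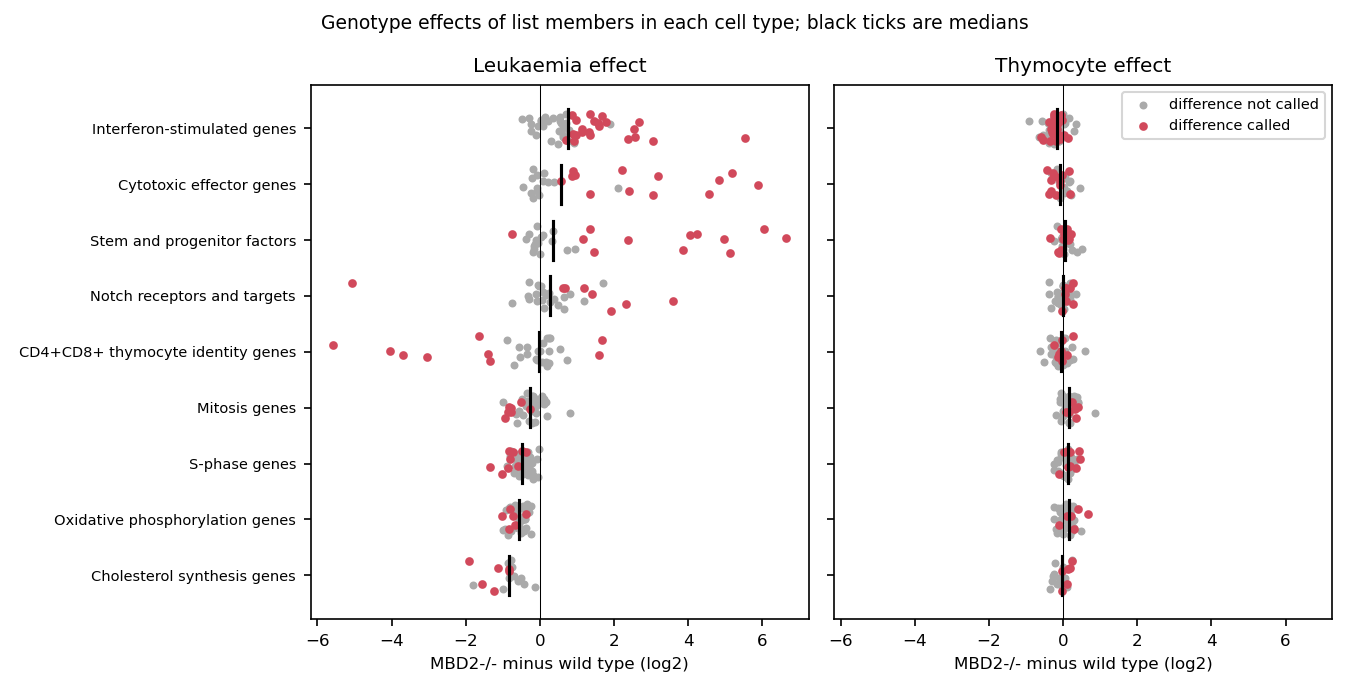
Points are tested members of 9 lists, with the leukaemia effect on the left and the thymocyte effect on the right (log2, MBD2-/- minus wild type), red where the difference of effects was called, and black ticks for medians. Members spread widely in leukaemia, to both sides of 0 for the identity genes, and stay close to 0 in thymocytes.

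Growth and metabolism lists leaned the other way, by small amounts and in nearly every member. All 46 S-phase genes, all 42 oxidative phosphorylation genes and all 18 cholesterol synthesis genes tested had a difference below 0, as did 40 of 43 mitosis and 37 of 41 ribosome biogenesis genes. Fewer passed one by one: 9, 6, 6, 7 and 4 in that order, and none of the 5 lists had a member called higher by limma. At an unadjusted p under 0.05 the lower counts were 25, 19, 8, 13 and 12, with 1 ribosome biogenesis gene higher. The medians were -0.56 (S phase), -0.71 (oxidative phosphorylation), -0.73 (cholesterol), -0.40 (mitosis) and -0.52 (ribosome biogenesis). Leukaemia medians were -0.26 to -0.83 and thymocyte medians -0.05 to 0.15.

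Among cholesterol genes, Insig1, which restrains sterol synthesis and is itself sterol-regulated, read 322 to 696 and 79.2 to 168 in wild-type and MBD2-/- leukaemia and 243 to 399 in thymocytes (difference -2.15, SE 0.41, adjusted p = 0.00645). The pathway enzymes Idi1 (difference -1.65, adjusted p = 0.0111), Pmvk (difference -1.32, adjusted p = 0.00252) and Sqle (difference -1.20, adjusted p = 0.0311) were lower as well. The count of 6 became 3 without wild-type leukaemia replicate 1, wild-type thymocyte replicate 1 or MBD2-/- thymocyte replicate 1 or 3, and Sqle lost its call without wild-type leukaemia replicate 1 or 2, MBD2-/- leukaemia replicate 3, wild-type thymocyte replicate 1 or 3 or MBD2-/- thymocyte replicate 1 or 3.

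Gins2, a subunit of the replicative helicase, read 597 to 749 and 261 to 489 in wild-type and MBD2-/- leukaemia and 179 to 209 and 260.0 to 313 in wild-type and MBD2-/- thymocytes (difference -1.26, SE 0.27, adjusted p = 0.0129). The polymerase subunits Pole (difference -0.61, adjusted p = 0.0265) and Pold2 (difference -0.89, adjusted p = 0.0297) and the checkpoint adaptor Clspn (difference -0.78, adjusted p = 0.0238) were lower with less margin. The Pole call was lost without wild-type leukaemia replicate 1 or 2, MBD2-/- leukaemia replicate 2, wild-type thymocyte replicate 2 or 3 or MBD2-/- thymocyte replicate 2 or 3. That of Pold2 was lost without wild-type leukaemia replicate 1 or 2, MBD2-/- leukaemia replicate 1 or 2, wild-type thymocyte replicate 2 or 3 or MBD2-/- thymocyte replicate 1 or 3, and that of Clspn without wild-type leukaemia replicate 2, wild-type thymocyte replicate 1 or MBD2-/- thymocyte replicate 2 or 3. The S-phase count of 9 fell to 1 without wild-type leukaemia replicate 2, to 2 without MBD2-/- thymocyte replicate 3, to 3 without wild-type thymocyte replicate 1, to 4 without MBD2-/- leukaemia replicate 2 or wild-type thymocyte replicate 2 or 3, and to 5 without wild-type leukaemia replicate 1 or MBD2-/- thymocyte replicate 1. It rose to 16 with the labelling-control set as a term and to 19 with the Gapdh ratio as a covariate. Of mitosis genes, Birc5, the survivin of the chromosomal passenger complex, had -1.24 (SE 0.25, adjusted p = 0.00822), the cell-cycle factor Mybl2 -0.87 (adjusted p = 0.0133), the kinetochore subunit Spc24 -1.10 (adjusted p = 0.014) and the mitotic entry gene Cdca3 -1.29 (adjusted p = 0.0154), and these 4 held in all 12 omissions. With the Gapdh ratio as a covariate 12 mitosis and 8 ribosome biogenesis genes were lower, the latter count also after centring on the 75th percentile.

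Of respiratory genes, Ndufb6 of complex I read 2709 to 2946 and 1201 to 1919.6 in wild-type and MBD2-/- leukaemia and 1394 to 1468 and 1647 to 1977 in thymocytes (difference -1.10, SE 0.22, adjusted p = 0.00859). Sdhb of complex II had -1.14 (adjusted p = 0.0142), Ndufb8 of complex I -0.95 (adjusted p = 0.0238) and Uqcrq of complex III -1.04 (adjusted p = 0.0307). The Ndufb8 call was lost without wild-type leukaemia replicate 2, wild-type thymocyte replicate 1 or 2 or MBD2-/- thymocyte replicate 2, and the Uqcrq call without wild-type leukaemia replicate 1, 2 or 3, wild-type thymocyte replicate 1, 2 or 3 or MBD2-/- thymocyte replicate 1 or 2. The count of 6 became 2 without wild-type leukaemia replicate 2 or wild-type thymocyte replicate 1 or 2, 3 without wild-type thymocyte replicate 3 or MBD2-/- thymocyte replicate 2, 11 without MBD2-/- leukaemia replicate 3, and 14 with either the labelling-control set or the Gapdh ratio in the fit. In ribosome biogenesis, the spermidine synthase gene Srm (difference -1.36, adjusted p = 0.0146), the small nucleolar particle proteins Gar1 (difference -0.92, adjusted p = 0.0164) and Nhp2 (difference -1.15, adjusted p = 0.0191) and the ribosome factor Ppan (difference -0.84, adjusted p = 0.027) were lower. Nhp2 lost its call without MBD2-/- thymocyte replicate 2, and Ppan without MBD2-/- leukaemia replicate 2 or 3, wild-type thymocyte replicate 2 or 3 or MBD2-/- thymocyte replicate 1 or 3.

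Regulators of survival and of the G1 phase were called in both directions. For the 19 genes of the G1 list the shares, 10.5% higher and 5.26% lower, lay near the 7.27% and 4.25% over all genes. For the 18 BCL2 family genes they were 27.8% and 5.56%. Ccnd2, cyclin D2, read 72.1, 74.7 and 79.8 in wild-type leukaemia, 1603, 1707 and 2101 in MBD2-/- leukaemia, 152, 60.6 and 89.8 in wild-type thymocytes and 83.6, 60.5 and 74.7 in MBD2-/- thymocytes. MBD2-/- leukaemia was far above all other arrays, and the difference was 4.63 (SE 0.33, adjusted p = 5.95e-06). Cdk6, the kinase that cyclin D2 activates, read 4075 to 5379 in MBD2-/- leukaemia and 1758 to 1858 in wild-type leukaemia (difference 1.43, SE 0.23, adjusted p = 0.00184), while E2f2 was lower (difference -1.91, SE 0.42, adjusted p = 0.0151), which made 2 higher and 1 lower of 19 (median 0.19), or 2 lower without MBD2-/- leukaemia replicate 3. Of 18 BCL2 family genes 5 were higher and 1 lower (median 0.15). Bcl2, which blocks cell death, read 187, 179 and 162 in wild-type leukaemia, 966, 958 and 1064 in MBD2-/- leukaemia, 181, 209 and 223 in wild-type thymocytes and 184, 172 and 162 in MBD2-/- thymocytes. Again MBD2-/- leukaemia alone was high, with a difference of 2.62 (SE 0.14, adjusted p = 7.7e-07). Bcl2l2, another protective member, had 1.87 (SE 0.26, adjusted p = 0.000756), but its 3 further probe sets gave -0.01, -0.20 and 0.40, none of them called (adjusted p = 0.973, 0.507 and 0.323). Pmaip1, the death-promoting NOXA, had 2.27 (SE 0.34, adjusted p = 0.00139), so that members of opposite function were higher.

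Bcl2l14 (difference 1.16, adjusted p = 0.0212) and Bmf (1.38) were the others called higher and Bid (-1.19) the only one lower. The higher count fell to 3 without any 1 of wild-type leukaemia replicates 2 and 3 and MBD2-/- thymocyte replicates 1 and 3, the Bcl2l14 call was lost without wild-type leukaemia replicate 2 or 3 or MBD2-/- thymocyte replicate 1 or 3, and the Bid call was lost in 9 of 12 omissions, all but those of wild-type leukaemia replicates 1 and 3 and MBD2-/- leukaemia replicate 1. PI3K and FOXO genes were higher in 10 and lower in 1 of 30 (median 0.29), or lower in 2 without wild-type thymocyte replicate 3. Higher ones were the AKT phosphatase gene Phlpp1 (difference 2.00, SE 0.19, adjusted p = 5.07e-05), the insulin receptor Insr (difference 1.44, SE 0.14, adjusted p = 5.84e-05), the FOXO target Ccng2 (difference 1.17, adjusted p = 0.00127) and the kinase subunit Pik3cb (difference 1.80, adjusted p = 0.00143). Further Insr probe sets gave 0.01 and -0.14, neither of them called. For p53 targets 5 were higher and 1 lower of 30 (median 0.37), with 3 higher without wild-type leukaemia replicate 2, MBD2-/- leukaemia replicate 2, wild-type thymocyte replicate 1 or MBD2-/- thymocyte replicate 2.

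T-cell-receptor signalling genes gave 10 higher and 1 lower of 36 (median 0.63), the lower one being Cd2. Tespa1, a signalling protein of thymocytes, had 1.68 (SE 0.21, adjusted p = 0.0004) and the phosphatase gene Ptpn22 1.59 (SE 0.23, adjusted p = 0.000954). Prkcq, protein kinase C theta, read 835 to 1117 and 1427 to 1736 in wild-type and MBD2-/- leukaemia and 1974 to 2313 and 1367 to 1562 in wild-type and MBD2-/- thymocytes, which did not overlap either (difference 1.28, SE 0.19, adjusted p = 0.00122, with a thymocyte effect of -0.57). With the Gapdh ratio in the fit the count rose to 17. Cytokine receptor and SOCS genes gave 10 higher and 2 lower of 35 (median 0.43), led by Il18r1, the co-receptor Tgfbr3 (difference 2.75, SE 0.36, adjusted p = 0.000492) and the interleukin 10 receptor Il10ra (difference 2.83, SE 0.37, adjusted p = 0.000522). Their 2 lower calls became 1 or 0 in 10 of 12 omissions, all but those of wild-type leukaemia replicate 3 and wild-type thymocyte replicate 3. Further probe sets gave 0.18 for Tgfbr3 and 0.49 and 0.14 for Il10ra, none of them called.

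Homing genes gave 9 higher and 3 lower of 30 (median 0.09, or -0.04 after centring on the 75th percentile), the lower ones being Ccr9, Nrp1 and the hyaluronan receptor Cd44 (difference -2.69, SE 0.24, adjusted p = 3.5e-05). Sema4a, a semaphorin, had 3.31 (SE 0.27, adjusted p = 1.49e-05). Integrin chains Itga4 (1.84), Itgal (1.41), Itgb3 (2.10) and Itgb7 (1.18) and the chemokine receptor Ccr7 (1.28) were on the higher side. Growth factor and guidance genes gave 9 higher and 5 lower of 31 (median -0.08), with Tgfb2, Pdgfrb, Angpt1 and F2r at one end and Cttn, Nrp1 and Dsp at the other. Fgf3 (3.75), Pdgfb (1.33) and Pdgfc (0.53), all secreted ligands, were higher, and Vegfb (-1.30) was lower.

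Lists of relatives and partners of MBD2 were short, and their called members few in number but not all few in share. The shares called higher were 15.4% of methyl-CpG binding genes, 7.14% of NuRD subunits and 14.3% of DNA methyltransferase and TET genes, against 7.27% of all genes. Of the last list 7.14% were lower, against 4.25% of all genes. Of 13 methyl-CpG binding genes 2 were higher and none lower by limma (3 and 0 at an unadjusted p under 0.05; median 0.12, or -0.01 after centring on the 75th percentile). Baz2b, a bromodomain protein with a methyl-CpG-binding-like domain, read 129.9 to 161 and 387 to 447 in wild-type and MBD2-/- leukaemia and 456 to 763 in thymocytes (difference 1.49, SE 0.24, adjusted p = 0.00185). Mbd1, a relative of MBD2, had 0.92 (adjusted p = 0.0435), but none of its 4 further probe sets was called and 3 were of the opposite sign (-0.16, -0.38 and -0.22, against 0.44 for the last). Its call was lost in 9 of 12 omissions (all but those of MBD2-/- leukaemia replicate 3, wild-type thymocyte replicate 2 and MBD2-/- thymocyte replicate 3), with an adjusted p of up to 0.1. NuRD subunits gave 1 higher and none lower of 14 by limma, adjusted or not (median -0.12). That 1 was Mta3, which read 1623 to 3121 in MBD2-/- leukaemia and 223 to 485 elsewhere (difference 2.56, SE 0.40, adjusted p = 0.00187), and the next by p, the deacetylase Hdac1, gave -0.28 (adjusted p = 0.469). Of 14 DNA methyltransferase and TET genes, Tet2 (difference 1.95, SE 0.24, adjusted p = 0.000329), which oxidises methylcytosine, and Dnmt3b (difference 1.63, SE 0.25, adjusted p = 0.00162), a de novo methyltransferase, were higher, and Idh1 (difference -0.77, adjusted p = 0.0427) was lower with the call lost in 9 omissions, all but those of MBD2-/- leukaemia replicate 2, wild-type thymocyte replicate 3 and MBD2-/- thymocyte replicate 1. Without wild-type thymocyte replicate 3 the list had 2 lower genes.

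Members of the germline list were called in both directions, and none of the imprinted list was called over the 12 arrays. Of 17 genes tested in the germline list 2 were higher and 3 lower (median -0.07). These were shares of 11.8% and 17.6%, against 7.27% and 4.25% of all genes. One of the higher calls, Dkkl1 (difference 2.25, SE 0.43, adjusted p = 0.00623), is a testis gene. The other, Dpp4 (difference 2.06, SE 0.17, adjusted p = 1.82e-05), is a surface peptidase of T cells and not a germline gene, and it was not silent in the wild-type cells: a further probe set had means of 394 in wild-type leukaemia and 284 in wild-type thymocytes. Tex15, a meiosis gene, read 63.5 to 89.1 in wild-type leukaemia and 11.1 to 13.1 in MBD2-/- leukaemia (difference -2.07, SE 0.18, adjusted p = 2.12e-05) and Piwil2, a germline Argonaute protein, was lower, at -0.72 (SE 0.14, adjusted p = 0.00608). None of 26 imprinted genes was called by limma (2 higher and 1 lower at an unadjusted p under 0.05, and 1 called lower without MBD2-/- leukaemia replicate 3), and the smallest p belonged to Impact (difference 0.69, adjusted p = 0.141) and Gnas (difference 0.41, adjusted p = 0.163).

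Wnt genes moved in both directions. Antagonists gave 2 higher and 1 lower of 21 (median -0.15), receptors and transducers 3 and 3 of 34 (0.02), and target genes 5 and 3 of 26 (0.10, or -0.04 after centring on the 75th percentile). The shares were 9.52% and 4.76% for antagonists, near those of all genes, and 8.82% and 8.82% for receptors and transducers. For target genes they were 19.2% and 11.5%. Wif1, a secreted Wnt inhibitor, read 83.1, 153 and 226 in wild-type leukaemia and 4.19 to 18.3 on the other arrays (difference -2.41, SE 0.36, adjusted p = 0.00123). Axin2, a feedback inhibitor and target, had 1.09 (SE 0.22, adjusted p = 0.00826), the co-repressor Tle2 0.81 (adjusted p = 0.00791) and the beta-catenin inhibitor Ctnnbip1 -1.49 (SE 0.31, adjusted p = 0.00981). Enc1, a target gene, was higher by 1.88 (SE 0.25, adjusted p = 0.000574).

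**Figure D5:**
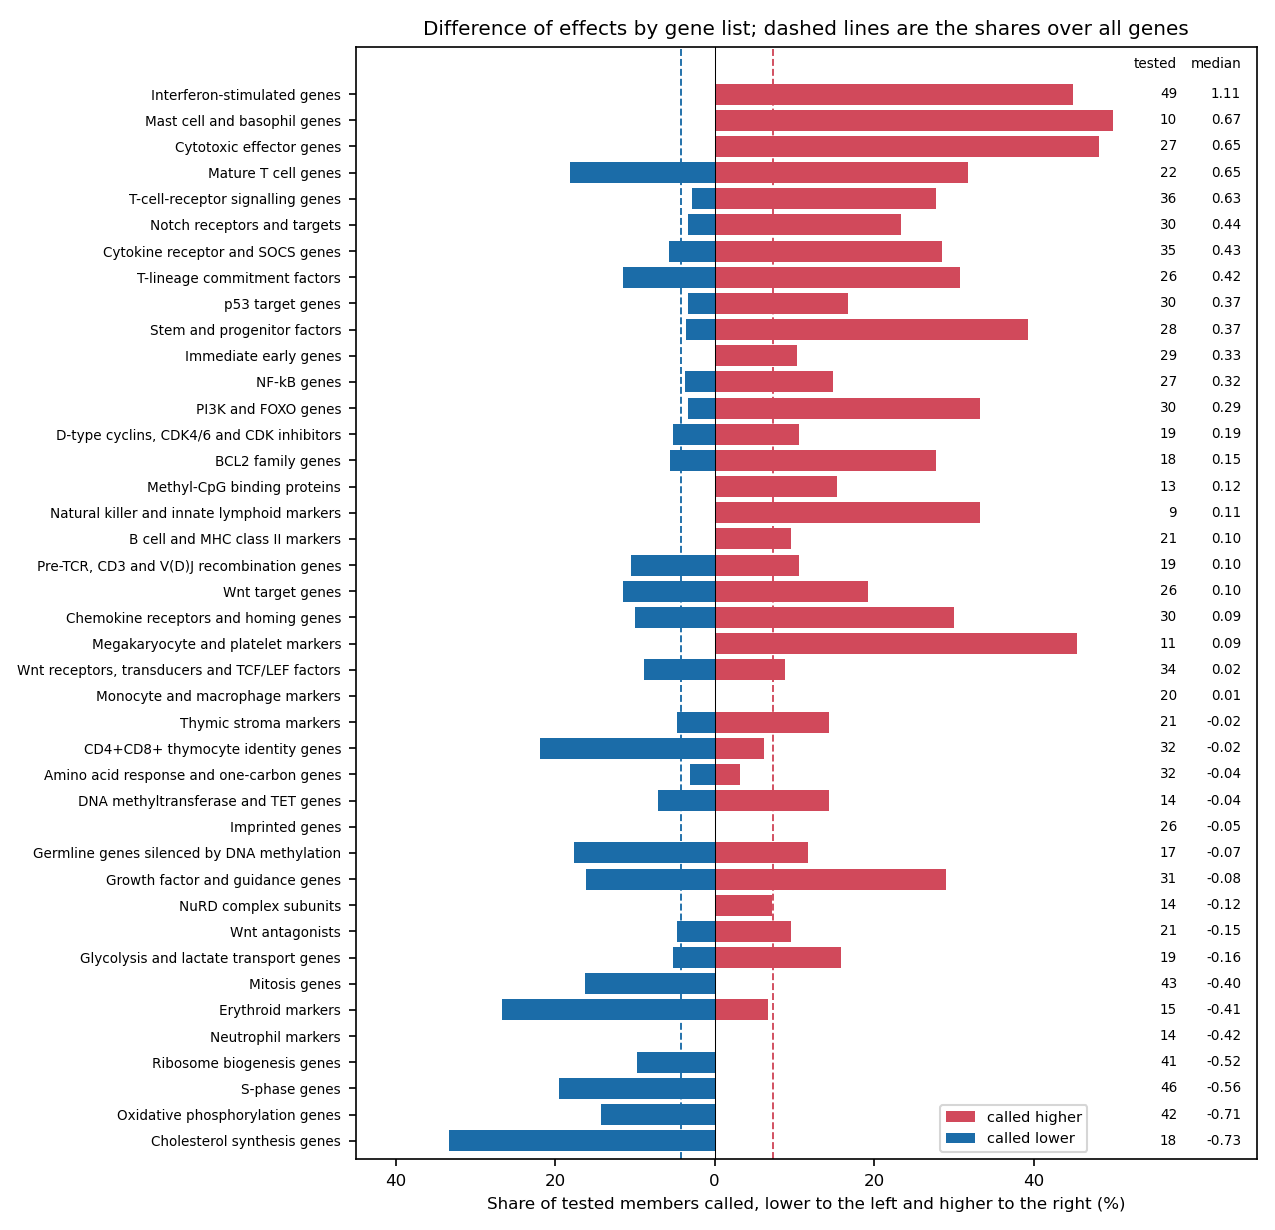
Bars give, for 41 lists, the share of tested members called higher (red, right) and lower (blue, left) in the difference of effects, with dashed lines at 7.27% and 4.25% over all genes and, at the right edge, the number tested and the median difference. Lists run from the highest median difference at the top to the lowest at the bottom. Interferon, mast cell, cytotoxic, mature T-cell and T-cell-receptor signalling lists lie at the top, with more red than blue. Replication, respiration and cholesterol lists lie at the bottom with blue bars.

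Markers of other blood and stromal cells were counted in the same way. Monocyte markers had no called member of 20 by limma (1 higher at an unadjusted p under 0.05), and neutrophil markers none of 14 (6 lower), with 4 called lower without MBD2-/- leukaemia replicate 1. Their summed signals were 568 to 1338 for monocyte markers over all arrays and, for neutrophil markers, 1317 to 2250 in wild-type leukaemia, 393 to 1097 in MBD2-/- leukaemia and 282 to 621 in thymocytes. S100a8, a neutrophil granule gene, read 367 to 795 in wild-type and 43.2 to 278 in MBD2-/- leukaemia, and Mpo was near background in both, at 26.1 to 30.1 and 17.2 to 19.4. The part of these signals in the results was not tested. B cell and MHC class II markers gave 2 higher of 21 (median 0.10, or -0.03 after that centring). The count was 0 or 1 in 10 of 12 omissions, all but those of wild-type leukaemia replicate 1 and wild-type thymocyte replicate 3. Of their defining genes, Cd79a, Pax5 and Ms4a1 were near background in every group, at most 35.2 on any array. Cd74 was not near background, with a lowest reading of 42.4. Its means were 56.4 and 71.7 in wild-type and MBD2-/- leukaemia, and 181 and 97.4 in wild-type and MBD2-/- thymocytes. The summed signal of the list was 5264 to 7374 over the leukaemia arrays and 5680 to 8554 over the thymocyte arrays. Its part in the results was not tested.

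Platelet-lineage markers were called higher in 5 and lower in none of 11 by limma, none being lower at an unadjusted p under 0.05 either (median 0.09, or -0.05 after centring on the 75th percentile). With F2r and Nfe2 these included Itgb3, the beta 3 integrin, which read 142 to 211 and 731 to 901 in wild-type and MBD2-/- leukaemia (difference 2.10, SE 0.23, adjusted p = 0.000124), the adhesion molecule Selp (difference 1.82, SE 0.25, adjusted p = 0.000822) and the integrin chain Itga2b (1.30). Their summed signal was 6580 to 6821 in MBD2-/- leukaemia, most of it F2r, and 616 to 882 elsewhere. Of 4 defining genes, Pf4 and Ppbp were near background, at 20.7 to 25.1 and 5.72 to 7.48 in MBD2-/- leukaemia. Gp9 read 60.5 to 72.9 there and 45.9 to 73.2 in wild-type leukaemia, and Itga2b 219.8 to 321 and 83.3 to 114. Their part in the results was not tested. Erythroid markers gave 1 higher, Hemgn (difference 2.37, SE 0.20, adjusted p = 1.88e-05), and 4 lower of 15, the carbonic anhydrases Car2 (difference -1.33, adjusted p = 0.0105) and Car1 (difference -0.48, adjusted p = 0.0323), the band 3 gene Slc4a1 (difference -1.56, adjusted p = 0.0158) and the receptor gene Epor (-0.62). The 4 became 2 without wild-type leukaemia replicate 1, MBD2-/- leukaemia replicate 1 or any 1 of replicates 1 and 2 of the thymocyte groups, the Car1 call was lost without wild-type leukaemia replicate 1 or 3, MBD2-/- leukaemia replicate 1, wild-type thymocyte replicate 1 or 2 or MBD2-/- thymocyte replicate 1 or 2, and the summed signal of the 15 genes was 3705 to 4399.6 in wild-type leukaemia, 3724 to 5232 in MBD2-/- leukaemia and 1509 to 2005 in thymocytes. Defining erythroid genes differed among themselves. The globin gene Hba-a1 was near background throughout, at most 22.3, whereas the erythroid factor Klf1 read 40.01 to 64.8 in wild-type and 79.2 to 118 in MBD2-/- leukaemia, 15.6 to 19.9 in wild-type and 17.2 to 20.4 in MBD2-/- thymocytes. The X-linked factor Gata1, which was not tested, read 31.9 to 42.1 and 123.3 to 147 in wild-type and MBD2-/- leukaemia and 19.7 to 27.8 and 22.8 to 39.5 in the thymocytes. Their part in the results was not tested.

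Mature T-cell genes gave 7 higher and 4 lower of 22 (median 0.65), the higher ones including Igfbp4 (difference 2.65, SE 0.21, adjusted p = 1.37e-05) and the GTPase gene Gimap3 (difference 2.19, SE 0.27, adjusted p = 0.000323) and the lower ones H2-Q2 and Ms4a6b (difference -2.21, SE 0.23, adjusted p = 8.66e-05). Thymic stroma markers gave 3 higher and 1 lower of 21 (median -0.02): Pdgfrb, Epcam (difference 2.22, SE 0.41, adjusted p = 0.00537), Col1a1 (difference 0.81, adjusted p = 0.0355) and, lower, Krt18. The Col1a1 call was lost without wild-type leukaemia replicate 1, 2 or 3, wild-type thymocyte replicate 1, 2 or 3 or MBD2-/- thymocyte replicate 2 or 3. The summed signal of the 21 genes was 4737 to 5926 in MBD2-/- leukaemia, most of it Pdgfrb, and 686 to 846 on the other arrays. Of the 21 genes, 12 had every group mean at or below the control level. Foxn1 and Psmb11, which define thymic epithelium, were near background on all arrays, at most 29.7, and the part of the other genes in the results was not tested. In the remaining lists, NF-kB genes gave 4 higher and 1 lower of 27, with 2 higher without wild-type leukaemia replicate 2, MBD2-/- leukaemia replicate 3, wild-type thymocyte replicate 1 or MBD2-/- thymocyte replicate 1 or 2. Immediate early genes gave 3 and 0 of 29 by limma (9 and 2 at an unadjusted p under 0.05, and 1 lower without MBD2-/- leukaemia replicate 3). Glycolysis genes gave 3 and 1 of 19, with 2 lower without that same array. Amino acid and one-carbon genes gave 1 and 1 of 32, with 3 higher without wild-type thymocyte replicate 3 and 3 lower without MBD2-/- leukaemia replicate 3. Their lower call was lost without any 1 of the wild-type leukaemia arrays, wild-type thymocyte replicate 1 or MBD2-/- thymocyte replicate 1 or 3.

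Other probe sets of the called genes were tested for 951 of 1722 genes. Of 1730 such probe sets, 1543 had the same sign as the gene's brightest probe set, 579 were called with that sign and 2, for Mycn and Pkp4, were called with the other. For the leading genes the additional probe sets varied in size: Cttn gave -4.43, -1.60 and -0.79, the last not called (adjusted p = 0.0541), and of 4 further Cd93 probe sets 1 was called (6.19). Notch1 gave 1.81 (adjusted p = 0.00176), Ptcra had no second probe set, and Bcl2 and Ccnd2 were called higher on each of their 4 and 5 further probe sets. Of the 132 genes listed below with a called difference, 79 had a further probe set tested. In 12 of them at least 1 such probe set had the opposite sign, among them Mbd1 and Bcl2l2 as given above, Rora (1 of 7) and Slc15a2 (both of 2, -0.05 and -0.11, not called). For 27 of the 79 no further probe set was called. These include Mbd1, Bcl2l2 and Insr as given above, Axin2 (0.10), Epcam (0.17) and Uqcrq (-0.17, -0.19 and -0.09). By chromosome, the median difference lay between -0.08 and -0.01 on all 19 autosomes.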

How the data were processed

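Biotinylated cRNA from total RNA of 12 samples was hybridised to mouse Affymetrix arrays, per the labels' protocols. The values used are the authors' deposited intensities, a linear scale of 45101 probe sets; how they were summarised and normalised is not given in the sources used here. Probe sets were named from the platform annotation: 34945 had 1 gene, 932 several and 9160 none, and 64 were controls. X- and Y-linked genes (1147 probe sets) were left out because wild-type and MBD2-/- leukaemia differed in sex-linked signals.

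Log2(intensity + 16) values were fitted in limma 3.58.1 (R 4.3.3) with the 4 groups of all 12 arrays, and the difference of the genotype effects was a contrast of that fit. Probe sets above their array's 25th percentile on at least 3 arrays were tested (27530), with Benjamini-Hochberg adjustment over all of them. A gene was represented by its brightest probe set, picked before the filter, and called at an adjusted p under 0.05. That probe set was tested for 14949 of the 14950 genes with any tested probe set. On simulated data with the same design, 65.2% of changes of 1 (log2), 92.5% of 2 and 100% of 4 were recovered, with 13 false calls. The simulation changed 200 probe sets and drew independent noise for every array. Real arrays had correlated deviations and 2 labelling-control sets, so these rates need not hold for them. The number of arrays, 3 in a group, limits the precision.

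Genes named were the 12 largest called differences each way, up to 6 each way with the larger thymocyte effect, the 6 largest with opposite effects, the leading genes of each stand-apart pattern, up to 4 members per list by p, and Mbd2, Notch1, Myc, Cd4 and Cd8a. Further called list members and the genes with both effects called were named after their values were seen. The members and the 41 lists were chosen with earlier results of these data known. Replicate numbers are shared between groups, and a fit with the number as a block was an alternative. Alternatives covered scaling, pseudocount, filters, array weights, labelling-control set, Gapdh ratio, replicate block and leaving out each array; list counts under these were added after the data were seen. Promoters come from a RefSeq table (GRCm38.p6). Levels of genes are not compared with one another, since probe sets differ in brightness.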

Additional observations from a re-analysis of the deposited data

Results flagged for a closer look

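The genotype effect (MBD2-/- minus wild type) differed between leukaemia and thymocytes, by limma's test of the difference itself, for the 132 named genes listed here. In the leukaemia effect, which enters every difference, genotype cannot be told apart from the sex-linked signals. Values in parentheses are the leukaemia effect minus the thymocyte effect on the log2 scale.

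The difference was positive for Cpa3 (7.65), Cd93 (7.00), Trgv4 (6.45), Tgfb2 (6.19), Pdgfrb (6.10), Hhex (6.08), Angpt1 (6.05), Gzmb (5.97) and F2r (5.73). Positive values were also found for Nkg7 (5.44), Ifitm2 (5.41), Lmcd1 (5.30), Lyl1 (5.26), Serpinb6b (5.14), Nfe2 (4.97), Il18r1 (4.95), Slc15a2 (4.87) and Trbv13-2 (4.85). Next in size were Tsc22d1 (4.82), Ccnd2 (4.63), Samsn1 (4.58), Kit (4.02), Hey1 (3.51), Klrd1 (3.44), Bach2 (3.36), Sema4a (3.31) and Gbp2 (3.17). Then followed Tcf4 (3.01), Rora (2.93), Trim30a (2.88), Il10ra (2.83), Tgfbr3 (2.75), Igfbp4 (2.65), Bcl2 (2.62), Mta3 (2.56) and Hdc (2.49). The difference was positive for Oasl2 (2.46), Hemgn (2.37), Pmaip1 (2.27), Dkkl1 (2.25), Ifi209 (2.22), Epcam (2.22), Gimap3 (2.19), Itgb3 (2.10) and Adgrg1 (2.07). Positive values were also found for Dpp4 (2.06), Phlpp1 (2.00), Syk (1.99), Notch1 (1.96), Tet2 (1.95), Enc1 (1.88), Bcl2l2 (1.87), Selp (1.82) and Pik3cb (1.80). Next in size were Tespa1 (1.68), Dnmt3b (1.63), Dntt (1.63), Ripor2 (1.60), Ptpn22 (1.59), Baz2b (1.49), Insr (1.44), Cdk6 (1.43) and Prkcq (1.28). Then followed Scn4b (1.25), Gata2 (1.24), Abcg3 (1.23), Itgb7 (1.18), Ccng2 (1.17), Bcl2l14 (1.16), Ctsa (1.14), Axin2 (1.09) and Il2rb (1.09). The difference was positive for Cd244a (1.00), Mbd1 (0.92), Tle2 (0.81) and Col1a1 (0.81).

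The difference was negative for Cttn (-6.08), H2-Q2 (-6.01), Ptcra (-5.35), Cd8b1 (-5.34), Nrp1 (-4.60), Fabp5 (-4.14), Ccr9 (-4.0), Dsp (-3.82) and Cd2 (-3.80). Negative values were also found for Cd8a (-3.80), Arsi (-3.80), Slc36a4 (-3.74), Igsf3 (-3.05), Greb1 (-3.0), Ly6d (-2.92), Cd44 (-2.69), Wif1 (-2.41) and Ms4a6b (-2.21). Smaller negative values were those of Insig1 (-2.15), Tex15 (-2.07), Id3 (-2.02), E2f2 (-1.91), Card10 (-1.91), Xrcc6 (-1.79), Idi1 (-1.65), Slc4a1 (-1.56) and Ctnnbip1 (-1.49). The difference was negative for Srm (-1.36), Car2 (-1.33), Pmvk (-1.32), Cdca3 (-1.29), Cd4 (-1.27), Gins2 (-1.26), Birc5 (-1.24), Dact1 (-1.22) and Sqle (-1.20). Negative values were also found for Prickle1 (-1.19), Nhp2 (-1.15), Sdhb (-1.14), Ptpn14 (-1.10), Spc24 (-1.10), Ndufb6 (-1.10), Krt18 (-1.09), Snx10 (-1.09) and Tcf7l1 (-1.09). Smaller negative values were those of Uqcrq (-1.04), Ndufb8 (-0.95), Gar1 (-0.92), Pold2 (-0.89), Mybl2 (-0.87), Ppan (-0.84), Clspn (-0.78), Idh1 (-0.77) and Piwil2 (-0.72). The difference was negative for Pole (-0.61) and Car1 (-0.48).

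Sex-linked genes were kept out of the reported comparisons, and 2 of them carried a signal there. With X and Y genes kept, 1775 probe sets were higher and 958 lower. Xist had a mean intensity of 4193 in wild-type leukaemia, where the other 3 groups had means of 35.4 to 39.7. Eif2s3y had a mean of 519 in MBD2-/- leukaemia and 7.31 in wild-type leukaemia.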

How the results depend on the processing

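Of the 132 genes listed above with a called difference, 116 were called under every alternative and 117 with every array left out in turn, and none changed direction. Most of them were named because their difference was called in the same fit, so this stability follows in part from the choice. Further called list members named in the text, Mycn and Bid among them, are not in this count. The counts of probe sets moved more. Array weights gave 2684 higher and 1592 lower, and the Gapdh ratio as a covariate gave 2607 and 1587, against 1715 and 934. Centring on the 75th percentile gave 1433 lower, and the labelling-control set with the replicate block gave 1552 lower. The 7 arrays without signal from the labelling control alone, an alternative added after seeing the data, gave 493 higher and 196 lower, with fewer samples. For the others the cause was not tested. Leaving out 1 array gave 1308 to 1797 higher and 674 to 1036 lower. The replicate block alone gave 1729 higher and 953 lower, and the calls of Mbd1, Idh1 and Car1 were lost with it (adjusted p = 0.0683, 0.0727 and 0.0577 by limma). Nothing in the labels says what a shared number means. Of 18 same-number correlations of deviations from the group means 11 were over 0.1. All 9 among wild-type leukaemia, MBD2-/- leukaemia and wild-type thymocytes were (0.19 to 0.61, the own number matching best in 8), whereas the 9 with MBD2-/- thymocytes ran from -0.66 to 0.21, so the numbers were not taken to pair all 4 groups.

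Differences that were not called changed sign. Mbd2 gave -0.0106 with centring on the 75th percentile, and -0.0185 (without wild-type thymocyte replicate 1) to 0.2627 over the omissions of 1 array. Myc gave -0.0238 with that centring, -0.0068 with a pseudocount of 64, -0.1764 with the labelling-control set and -0.1425 with that set and the replicate block. Its omissions ranged from -0.3540 (without wild-type leukaemia replicate 3) to 0.5961, and were also negative without MBD2-/- leukaemia replicate 2, wild-type thymocyte replicates 1 and 2 or MBD2-/- thymocyte replicate 1. Bnip5 gave -0.0456 with the centring and -0.0217 (without wild-type thymocyte replicate 3) to 0.1621 over omissions, and Myh10 gave -0.0104 with a pseudocount of 1. Dim probe sets limit what can be seen: 184 of the 1087 higher genes had 3 of 4 group means at or below the control level of 35.3, where a fold change depends on the pseudocount.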
